A study of Macaca mulatta with 22 samples.

Results

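VGF, CHGA, SERPINI1 and CA11 are 4 genes whose protein products enter the secretory pathway of neurons, and each carried an m6A peak in the prefrontal cortex of all 11 rhesus macaques studied. The 4 genes were chosen by 2 measured properties, a peak in every animal's list and, for 3 of them, a place among the most enriched nuclear-encoded genes. They are 4 of 3671 genes with a peak in any list and hold 46 of 10069 peaks. An m6A peak is a stretch of exon over-represented among RNA fragments pulled down with an antibody against N6-methyladenosine, a methyl mark on adenosine. Peak lists were analysed for 6 control animals (A and B, male, and C, C1, C2 and C3, female) and 5 animals exposed to sevoflurane (D and S1, male, and F, S2 and S3, female). Sevoflurane, an inhaled anaesthetic, was given at about 2.5 to 3% for 4 h on each of about postnatal days 7, 21 and 35. All 11 animals are labelled as postnatal day 35. What the controls received in place of the gas is not given in the sources used here. Each label names a separate animal.

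Neurons package peptide precursors into dense-core vesicles, which release their contents on stimulation. VGF, a precursor of bioactive peptides induced by growth factors and activity, and CHGA (chromogranin A), a granin that helps form these vesicles and is itself cleaved into peptides, are cargo of such vesicles. SERPINI1 encodes neuroserpin, a secreted inhibitor of tissue plasminogen activator, and CA11 encodes a carbonic anhydrase-related protein, a secreted family member without catalytic activity. The m6A mark is written on nascent RNA by the METTL3-METTL14 complex and is often dense near stop codons and in long exons; reader proteins that bind it affect RNA decay, translation and localisation.

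Control lists held 452 to 1210 peaks and sevoflurane lists 852 to 1673. The tables give no read counts, so the depth is unknown and the number of animals sets the precision. The 11 input libraries were not analysed here, and no RNA level was compared. In bulk cortex, fewer cells of a type and less RNA per cell cannot be told apart. Markers of cell types were sparse in peak lists, which show methylated RNA rather than expression. Of 8 neuronal markers, 3 had a peak in any animal (RBFOX3 in 7, SYT1 in 2 and NEFL in 1). Of 5 oligodendrocyte markers 2 did, of 5 astrocyte markers 1 and of 5 microglial markers 1, while none of 4 endothelial and 5 endocrine markers did.

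The peaks lay in a different part of each gene, and at nearly the same place in nearly every animal. VGF (ENSMMUG00000010164) spans chr3:126568172-126574568 on the minus strand of rheMac8, a span of 6397 bases. Its peaks in all 11 animals joined into 1 region, chr3:126569040-126569668, in the last part of the gene. CHGA (ENSMMUG00000009971) spans chr7:155141206-155153349 on the plus strand, or 12144 bases, and its peaks joined into chr7:155149134-155150384, which includes an intron.

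SERPINI1 (ENSMMUG00000005939) spans chr2:126179337-126266422 on the minus strand, or 87086 bases, and its peaks joined into chr2:126265831-126266363, beside the annotated 5′ end. CA11 (ENSMMUG00000022161) spans chr19:44005768-44014698 on the minus strand, or 8931 bases, and its peaks joined into chr19:44012833-44014520, also near the 5′ end. So SERPINI1 and CA11 carried the peak near the start of the gene, and CHGA and VGF in its later part.

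**Figure D1:**
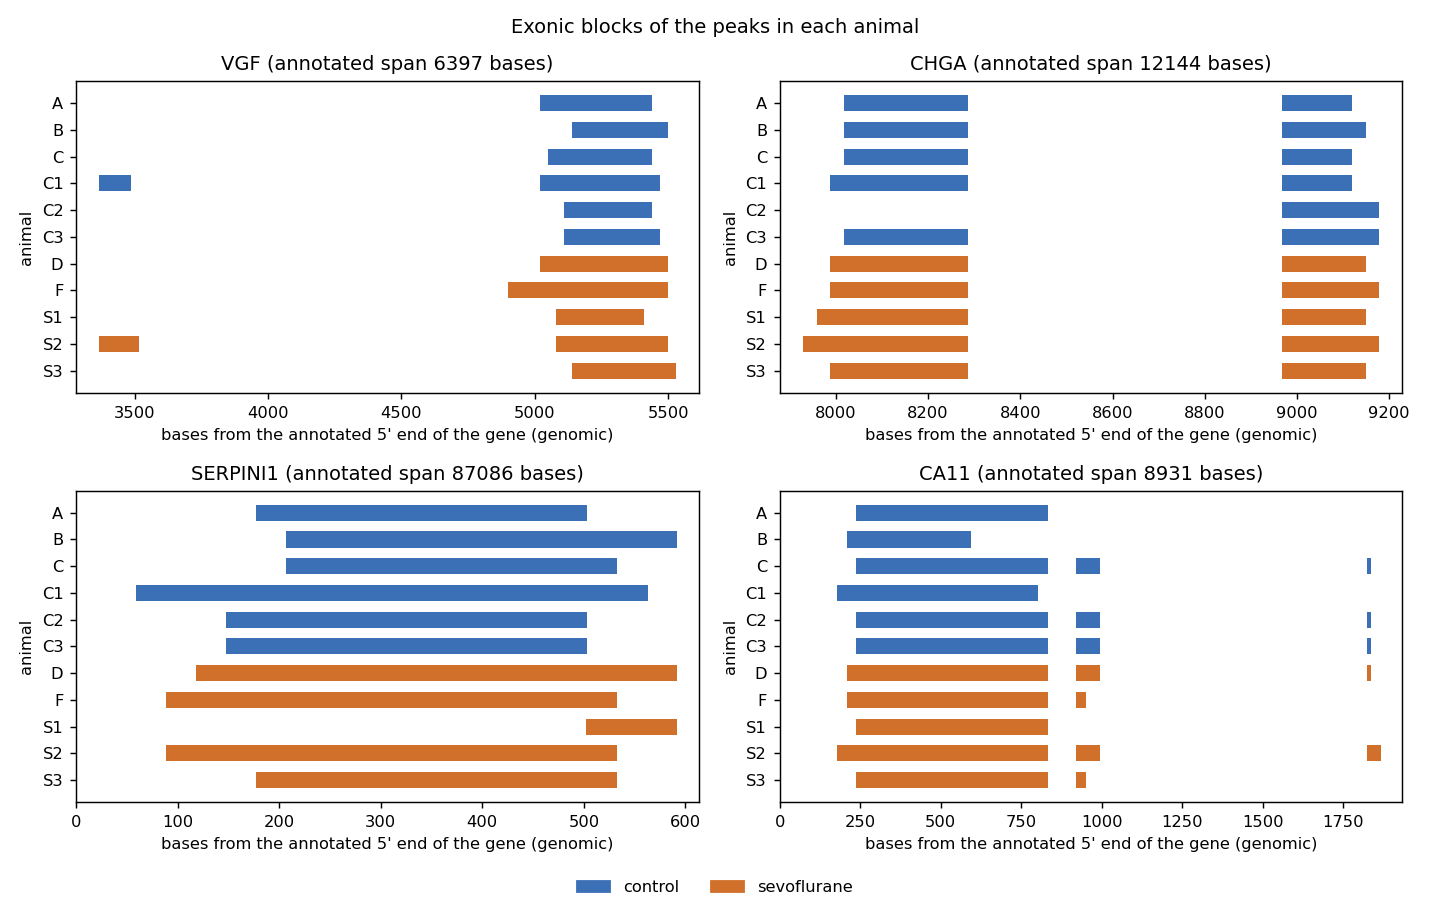
Exonic blocks of every peak of the 4 genes, with 1 line per animal, against genomic distance from the annotated 5′ end in bases (blue, 6 control animals; orange, 5 sevoflurane animals). The blocks line up between animals apart from the second VGF peak in C1 and S2, the missing first CHGA block in C2, the displaced SERPINI1 peak in S1 and the 1 to 3 blocks of CA11.

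Position was taken as the midpoint of the strongest peak, as a percentage of the gene span from the 5′ to the 3′ end. The median over the 11 animals was 0.39% for SERPINI1, 6.64% for CA11, 70.6% for CHGA and 82.2% for VGF. In the 10 animals with 2 CHGA blocks, the CHGA midpoint lies between the blocks. The first block ends 8286 bases and the second starts 8968 bases from the gene start. The CA11 midpoint also lies between blocks in C, C2, C3, D and S2, whose block farthest from the gene start was 14 to 44 bases long. Their CA11 positions were 11.4 to 11.6%, against 4.49% (B) to 6.64% (S3) in the other animals. Among the 78 genes with a peak in all 11 lists and a defined position, 17 had a median position under 10%, 19 lay between 10 and 70%, 41 lay above 70% and 1 lay outside its annotated span. The deposited annotation placed all 11 SERPINI1 peaks in a 3′ UTR and all 11 CHGA and all 11 CA11 peaks in exons. It placed 11 VGF peaks in an exon and 2 in a 3′ UTR. For SERPINI1 this class goes against the coordinates, which put every peak 59 to 591 bases from the annotated 5′ end and at least 86494 bases from the 3′ end.

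The shared VGF peak was 1 block whose edges moved between animals. Bases 5139 to 5438 from the gene start were under a peak in at least 10 of the 11 animals. The shared region spans 629 bases, of which 270 were covered in all 11. With the 151 bases of a second region, described below, 780 VGF bases were ever covered. The 5′ edge of the peak lay 4900 bases from the gene start in F and 5139 in B and S3, with the other animals between. Only C1 and S2 had a second VGF peak, chr3:126571052-126571202, upstream of the shared one, with a fold enrichment of 2.17 in C1 and 2.98 in S2. Being present in 1 control and 1 sevoflurane animal, it gave p = 1 in Fisher's exact test. A region in 2 animals cannot reach a p under 0.05 in that test at any split. Of 1265 regions present in 2 to 9 animals, 1.50% (19 regions) had an unadjusted Fisher p under 0.05. All 19 were present in a larger share of sevoflurane animals, and 0 in a smaller share. None passed after Benjamini-Hochberg adjustment (smallest adjusted Fisher p = 0.61). The smallest Fisher p that the 11 animals allow is 0.00216, so regions could pass only if many reached it together.

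CHGA carried a single peak made of 2 exonic blocks in 10 of 11 animals. The first block ended at base 155149492 in those 10, and the second began at base 155150174 in all 11. C2, a control, lacked the first block. The outer edges moved between animals, from 7928 to 8018 bases from the gene start at one side and from 9118 to 9178 at the other. Of 570 CHGA bases covered in any animal, 151 were covered in all 11, all within the second block, and 420 were covered in at least 10. Of the 570 bases, 60 were covered only in sevoflurane animals, in at most 2 animals at any base, and no base was covered only in controls. VGF had 179 and CA11 had 30 bases covered only in sevoflurane animals, in 1 animal at any base. SERPINI1 went the other way, with 30 bases covered only in controls. The share over the other shared genes is not given here.

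SERPINI1 had 1 peak in each animal, and 10 of the 11 overlapped broadly. In those 10 animals the peak was 326 to 504 bases long and held bases 207 to 502 from the gene start. In S1, a sevoflurane animal, the peak was 90 bases long and ran from base 502 to 591, so that it shared 1 base with the peaks of A, C2 and C3, and 1 base was covered in all 11 animals. PDCD10, a neighbouring gene, lay 374 bases from the SERPINI1 peak of animal A in the deposited annotation and had a peak in 0 animals.

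CA11 had the widest peak of the 4 genes, with a median of 654 exonic bases. Bases 237 to 801 from the gene start lay under a peak in at least 10 animals, with B the animal whose peak was shortest. Of 773 bases covered in any animal, 358 were covered in all 11. The peak was in 3 blocks in C, C2, C3, D and S2, in 2 blocks in F and S3, and in 1 block in A, B, C1 and S1. Both groups held animals with 1 and with 3 blocks.

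The overlap of the covered bases of 2 animals was measured by the Jaccard index, the shared bases over the bases covered in either. Over the 55 pairs of animals its median was 0.875 for CHGA, 0.870 for CA11, 0.749 for SERPINI1 and 0.683 for VGF. The VGF values include the second peak of C1 and S2. The lowest pair of SERPINI1 had an index of 0.00225, and the lowest among the 45 pairs without S1 was 0.647. For CHGA the lowest pair, 0.296, held C2. Pairs between treatments had medians of 0.669 for VGF, 0.859 for CHGA, 0.742 for SERPINI1 and 0.873 for CA11, each inside the range of the pairs within either group.

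Fold enrichment is the authors' own value for each peak. It is used here to order genes within 1 animal's list and is described by animal, without a test between treatments. Relative to the list's median, it also enters the correlations between genes. What it was computed against, including whether each animal's input library was the background, is not given in the sources used here. It was part of how the 4 genes were chosen, so its values are a description. A gene was ranked by its strongest peak, and its percentile in a list is 100 for the most enriched gene. CA11 had the highest median percentile of the 72 nuclear genes with a peak in all 11 lists, at 99.0, followed by SERPINI1 at 98.9 and VGF at 98.7. ZBTB47, a zinc-finger gene, stood level with VGF at 98.7, and the next nuclear gene, which had no symbol, stood at 98.0. The mitochondrial genes ND2, ND6 and COX1 stood above CA11. A further 51 genes had a peak in all lists but 1 and so fell just outside the rule.

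CA11 enrichment in controls had a lowest value of 56.8-fold, a median of 71.4-fold and a highest value of 332-fold. In the sevoflurane animals it was 85.8-fold in D, 87.4-fold in F, 35.9-fold in S1, 256-fold in S2 and 667-fold in S3. The gene was the most enriched in the lists of S2 and S3, and its lowest percentile, 88.9, was that of S1.

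SERPINI1 enrichment in controls ran from 25.4-fold to 132-fold with a median of 70.6-fold. It was 81.4-fold in D, 86.2-fold in F, 5.44-fold in S1, 114-fold in S2 and 129-fold in S3. S1 stood apart, at percentile 41.6 against 88.8 to 99.5 in the other 10 animals. This is the animal with the 90-base peak, whose log10 p-value was -4.46 against -8.53 to -56.5 elsewhere.

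VGF enrichment in controls ran from 21-fold to 131-fold with a median of 66.2-fold. It was 71.9-fold in D, 245-fold in F, 16.2-fold in S1, 243-fold in S2 and 150-fold in S3. The groups overlapped, and S1 again had the lowest percentile, 76.8, followed by C1 at 86.5.

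CHGA differed from the other 3 in that its peak was not strongly enriched. Control values ran from 3.05-fold to 6.48-fold with a median of 4.32-fold, and sevoflurane values were 6.44-fold in D, 8.2-fold in F, 5.69-fold in S1, 12.5-fold in S2 and 6.13-fold in S3. Its percentile ran from 8 in C to 71.6 in S2, with a median of 46.5, which is 74th of the 81 genes with a peak in all lists. Its neighbours in that order were PLEC at 46.6, FAIM2 at 47.1 and SNN at 47.6 above, and MAP1A at 40.3, HDGFL2 at 39.1 and HNRNPU at 37.1 below. The lists differ in length and ranks from them show no change between groups, so the levels were not tested between treatments.

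**Figure D2:**
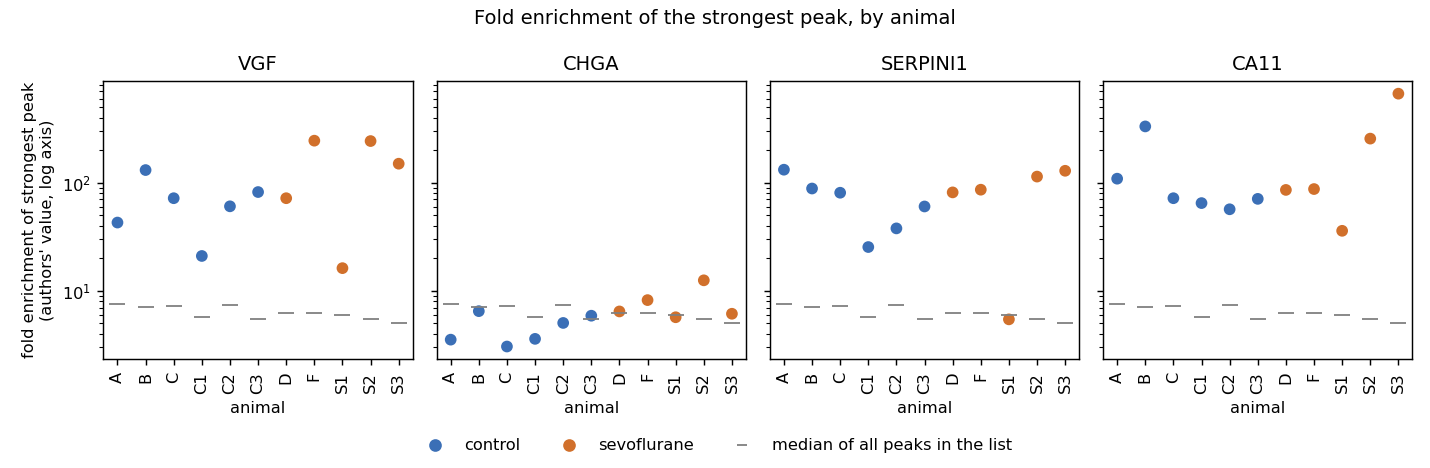
Fold enrichment of the strongest peak of each gene (log axis) in the 6 control (blue) and 5 sevoflurane (orange) animals, with a grey dash at the median of all peaks in that animal's list. VGF and CA11 lie above the dash in every animal and SERPINI1 in all but S1, whereas CHGA lies between 3.05-fold and 12.5-fold, close to the dash.

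The authors' p-value of a peak ordered the 4 genes differently. The median percentile by p-value was 99.2 for CA11, 96.0 for VGF, 95.5 for CHGA and 91.6 for SERPINI1. CHGA thus stood 49.0 percentile points higher by p-value than by enrichment, the sixth widest gap of that sign among the 81 genes. It was seen in all 11 animals, with CHGA between percentiles 89.4 and 98.8 by p-value. For SERPINI1 the gap ran the other way, by -7.29 points. The median over the 81 genes was 78.1 by enrichment and 91.6 by p-value.

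**Figure D3:**
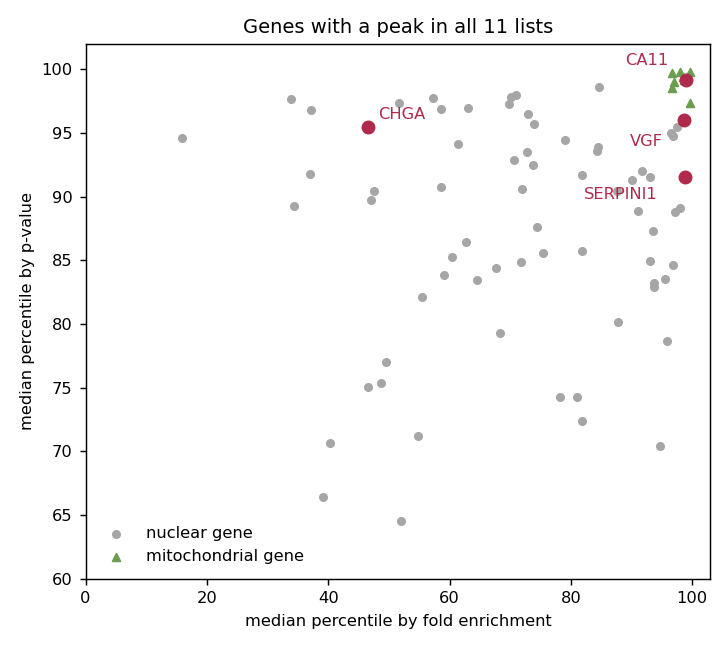
Median percentile by fold enrichment against median percentile by p-value over 11 animals for the 81 genes with a peak in every list (grey circles, nuclear genes; green triangles, mitochondrial genes; red, the 4 genes). CA11, VGF and SERPINI1 sit at the right edge at 98.7 to 99.0 by enrichment, while CHGA sits at 46.5 by enrichment and 95.5 by p-value.

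S1 had the lowest enrichment of all 11 animals for VGF, SERPINI1 and CA11. Over the 81 shared genes, C1 was the lowest animal for 25, and C and S1 for 13 each. The median gene stood 0.87 log2 units above its list's median in C1, 1.06 in C and 1.11 in S1, against 2.63 in S3. The part of this in the 4 genes' values was not tested.

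Whether the peaks widened after sevoflurane was tested on covered bases, the exonic bases of a gene under any peak in an animal, a measure that the choice of genes did not use. CHGA was the only one of the 4 with an unadjusted exact p under 0.05, and no gene passed after adjustment. Its covered bases in controls had a lowest value of 211, a median of 435 and a highest value of 480. They were 480 in D, 510 in F, 510 in S1, 570 in S2 and 480 in S3. The groups met at 480, the value of C3, D and S3, and the lowest animal was C2, which lacked the first block. The ratio of sevoflurane to control was 1.30 (95% interval 1.04 to 1.81; 0.38 on the log2 scale), with p = 0.0216 in a two-sided exact permutation test over all splits of the animals and an adjusted p of 0.361.

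Over the 81 genes the same test called 9.88% higher (8 genes) and 1.23% lower (1 gene) after sevoflurane at an unadjusted p under 0.05. After adjustment 0 genes were called (smallest adjusted exact p = 0.351). The smallest exact permutation p possible is 0.00216, so 1 gene alone could not pass over 81 genes. The group mean of covered bases was greater after sevoflurane in 71 of the 81 genes, with a median difference of 0.29 on the log2 scale. Relative to each animal's median over the 81 genes, the CHGA difference was 0.08 (exact permutation p = 0.859). The exact permutation p of CHGA was also above 0.05 without F (0.0524), without S1 (0.0524) or without S2 (0.114). Without C2 the difference fell from 0.38 to 0.20 with an exact p of 0.0238.

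VGF covered 330 to 571 bases in controls, with a median of 375. It covered 480 in D, 599 in F, 330 in S1, 571 in S2 and 390 in S3. The values of the groups overlapped over nearly their whole range. The ratio was 1.16 (95% interval 0.847 to 1.56), with an exact permutation p of 0.297 and an adjusted p of 0.641. The log2 difference, 0.21 over all 11 animals, was 0.12 without F, 0.14 without S2 and 0.34 without S1. Relative to the animals' medians it was -0.08.

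SERPINI1 covered 326 to 504 bases in controls, with a median of 355, and 474 in D, 444 in F, 90 in S1, 444 in S2 and 356 in S3. Except for S1, the sevoflurane animals lay between 356 and 474, within the control range. The ratio was 0.844 (95% interval 0.423 to 1.31), with an exact permutation p of 0.833 and an adjusted p of 0.964. Without S1 the log2 difference turned from -0.25 to 0.20 (exact permutation p = 0.186). Relative to the animals' medians it was -0.54 with all 11 animals (exact permutation p = 0.147).

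CA11 covered 387 to 684 bases in controls, with a median of 654, and 713 in D, 654 in F, 595 in S1, 773 in S2 and 625 in S3. The 2 highest values were those of the sevoflurane animals S2 and D, and the lowest was that of control B. The ratio was 1.12 (95% interval 0.914 to 1.44), with an exact permutation p of 0.407 and an adjusted p of 0.687. The log2 difference, 0.16 over all 11 animals, was 0.03 without B. Relative to the animals' medians it was -0.13.

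**Figure D4:**
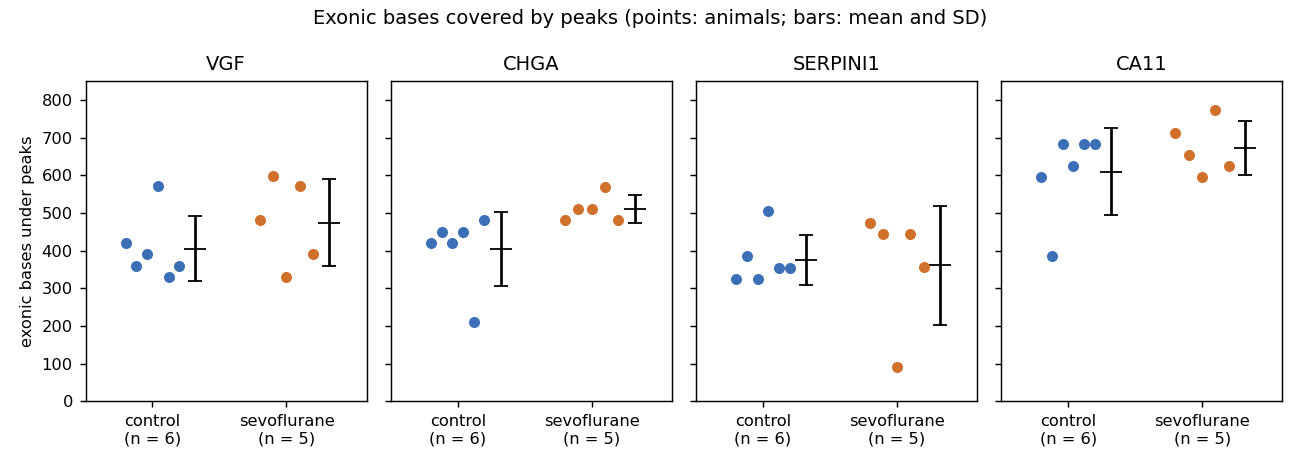
Exonic bases under peaks of each gene, with 1 point per animal (blue, 6 control; orange, 5 sevoflurane) and the mean with its SD beside each group. CHGA lies at 480 bases or more in every sevoflurane animal and at 480 or fewer in every control, and the groups of the other 3 genes overlap.

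Neither the number of peaks nor their position differed detectably between the treatments for any of the 4 genes. CHGA, SERPINI1 and CA11 had 1 peak in every animal, as did 19 of the 81 genes. The mean number of VGF peaks was 1.17 ± 0.41 (SD, n = 6) without and 1.20 ± 0.45 (SD, n = 5) with sevoflurane, and the exact permutation p was 1. At an unadjusted exact p under 0.05, 3.70% of the 81 genes differed in peak number. The mean position of CHGA was 71.3% ± 1.68 of the span (SD, n = 6) in control animals and 70.5% ± 0.10 (SD, n = 5) in exposed ones, with an exact permutation p of 0.554. C2, at 74.7%, was the highest, and without it the difference went from -0.76 to -0.07 percentage points.

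The differences in position were -0.02 percentage points for VGF, 0.04 for SERPINI1 and -0.06 for CA11, with exact permutation p-values of 1, 0.632 and 0.961. Of 77 genes tested, 5.19% differed in position at an unadjusted exact p under 0.05. After adjustment 0 genes passed for either measure, with smallest adjusted p-values of 0.877 for peak number and 0.722 for position in the exact permutation test. The smallest exact permutation p possible is 0.00216, so 1 gene alone could not pass for either measure.

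The labels give sex, and the treatment difference in covered bases was compared between females and males by relabelling sex within treatment. The female minus male difference, on the log2 scale, was 0.31 for VGF, 0.29 for CHGA, 0.90 for SERPINI1 and -0.41 for CA11. The exact permutation p-values were 0.493, 0.68, 0.493 and 0.187, and each was 0.986 after adjustment over the 81 genes. S1, with its 90-base SERPINI1 peak, is 1 of the 2 sevoflurane males. At an unadjusted exact p under 0.05, 2.47% of the 81 genes differed by sex, and 0 did after adjustment. The exact p of this permutation test moves in steps of 0.00667, so 1 gene alone could not pass over 81 genes.

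How the 4 genes varied from animal to animal was compared with the other shared genes by Pearson's r of the log2 fold enrichment over the list's median. The points are the 11 animals, whose libraries all genes share, and the values are descriptions. VGF varied most like DYNLL2, a dynein light chain (r = 0.84), ZBTB47 (0.83) and TSPYL1 (0.82). CHGA varied most like CALM3, which encodes calmodulin (r = 0.91), SNN (0.87) and TCTE1 (0.83). SERPINI1 varied most like PABPN1, a poly(A)-binding protein (r = 0.85), RHOBTB2 (0.78) and VGF (0.77). CA11 varied most like MYT1L, a neuronal transcription factor (r = 0.88), PTMS (0.83) and DYNLL2 (0.77). The median r over 77 genes with a symbol was 0.47 for VGF, 0.46 for CHGA, 0.33 for SERPINI1 and 0.41 for CA11.

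Between the 4 genes themselves, r was 0.77 for VGF with SERPINI1, 0.69 for VGF with CA11, 0.69 for SERPINI1 with CA11 and 0.68 for VGF with CHGA. It was 0.50 for CHGA with CA11 and 0.22 for CHGA with SERPINI1. In the 10 animals without S1, r was 0.68 for VGF with SERPINI1, 0.62 for VGF with CA11, 0.71 for SERPINI1 with CA11, 0.83 for VGF with CHGA, 0.56 for CHGA with CA11 and 0.46 for CHGA with SERPINI1.

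Other genes of the same pathways were mostly absent from the lists or present in few animals. Presence in few animals was also the rule over all 3671 genes with a peak, of which 2053 had one in 1 animal only. Of 22 genes for dense-core vesicle cargo and granins, 9 had a peak in any animal. Beside VGF and CHGA, only CHGB (chromogranin B), the second granin of this kind, was present in most lists. CHGB was present in all 5 sevoflurane lists and in 5 of the 6 control lists, and was absent in B. Its strongest peak had a median percentile of 47.6 by enrichment and 91.4 by p-value and lay at a median of 69.9% of the gene span, beside 46.5, 95.5 and 70.6% for CHGA. CHGB covered 151 to 572 bases in the 5 controls with a peak. It covered 692 bases in D, 422 in F, 362 in S1, 512 in S2 and 362 in S3. It had 2 peaks in each of these 5 animals and in C3, and 1 peak in the other 4 controls with a peak. The animals with 2 CHGB peaks also had the longest lists. Those lists held 852 (S1) to 1673 (S2) peaks, against 452 (C1) to 703 (C2) in the remaining controls. Peak number and covered bases of CHGB were not tested between treatments. Genes present in 10 or more animals were not tested for presence.

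NRN1 (neuritin) had a peak in 3 animals and NPTX1, a neuronal pentraxin, in 2 sevoflurane animals and 0 controls (Fisher's exact p = 0.182, adjusted p = 0.606). PCSK1N, NPY and PENK had a peak in 1 animal each.

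Of 22 genes for prohormone processing and vesicle exocytosis, 12 had a peak in any animal and 0 in all. PCSK1, the convertase that cleaves prohormones in dense-core vesicles, had one in 7 animals (4 controls and 3 sevoflurane). SYT7, a calcium sensor of exocytosis, had one in 5 animals at a median percentile of 95.1. VAMP2, a vesicle SNARE protein, had one in 5 animals at 54.1. UNC13A and PTPRN were each present in 3 sevoflurane lists and 1 control list, and SORL1 in 2 and 1. PAM, which amidates peptides, was present in 3 sevoflurane lists and 0 control lists (Fisher's exact p = 0.0606, adjusted p = 0.606). FURIN, a convertase, was present in 2 control lists and 0 sevoflurane lists (Fisher's exact p = 0.455, adjusted p = 0.901).

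**Figure D5:**
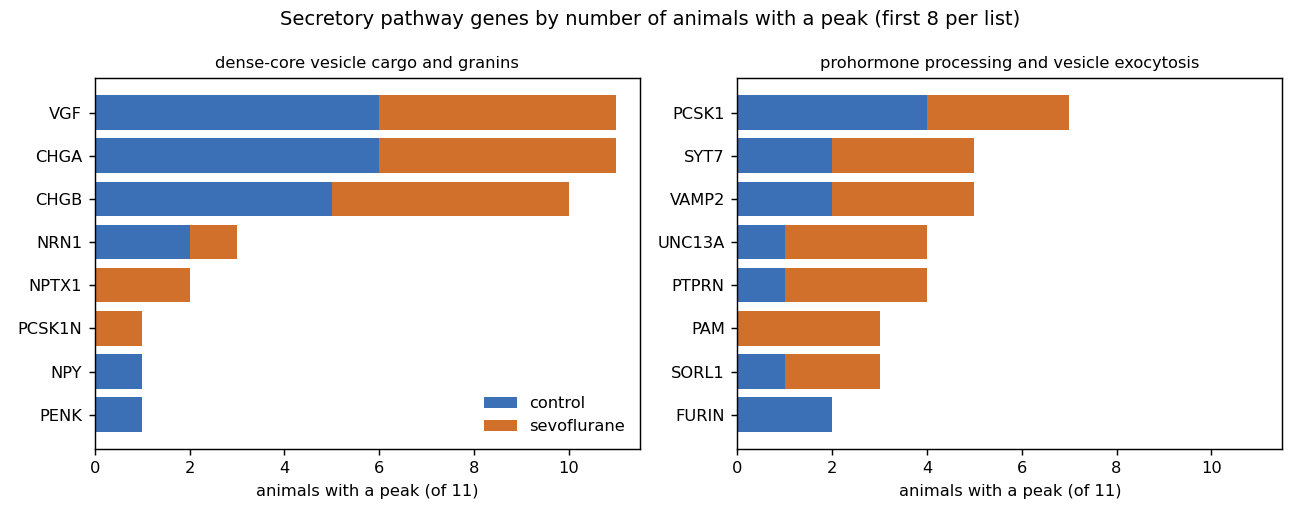
Number of animals with a peak, of 11, for the first 8 genes, ordered by that number, from the list of dense-core vesicle cargo and granins and the first 8 from that of prohormone processing and vesicle exocytosis, split into control (blue) and sevoflurane (orange). VGF, CHGA and CHGB stand at 10 or 11 animals, PCSK1 at 7 and the others at 5 or fewer.

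The families of the other 2 genes were nearly empty. CA11 was the only 1 of 15 carbonic anhydrase genes with a peak in any animal. Of 19 genes for serpins and the tissue plasminogen activator system, SERPINI1 was present in 11 animals, the lipoprotein receptors LRP1 and VLDLR in 2 each and SERPINF1 in 1. Among the genes of the 4 lists present in 2 to 9 animals, 2, 8, 0 and 2 could be tested by Fisher's exact test. At an unadjusted p under 0.05, 0 were called in either direction. Genes present in 2 or 3 animals could not be called at any split. The smallest Fisher p they can give is that of NPTX1 in 2 animals (0.182) and of PAM in 3 (0.0606). NRN1, SORL1, FURIN, LRP1 and VLDLR were also present in only 2 or 3 animals. Over all 1486 genes tested, 1.82% had an unadjusted Fisher p under 0.05 with a larger share of sevoflurane animals (27 genes). With a smaller share 0 did, and 0 genes passed after adjustment. The smallest possible Fisher p is 0.00216, so genes could pass only if many reached it together. Over all 3671 genes the median number of animals with a peak was 1. Among the listed genes with a peak other than the 4, that median was 1 for dense-core vesicle cargo and granins. It was 3 for prohormone processing and vesicle exocytosis and 2 for serpins and the tissue plasminogen activator system. The share of all annotated genes with a peak was not computed, so the share of each list with a peak has no comparison.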

How the data were processed

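Methylated RNA immunoprecipitation libraries of prefrontal cortex from 11 macaques were analysed from 1 deposited peak table per animal. Tools in the submitters' processing notes are HISAT2 2.1.0, Trim Galore 0.5.0 and cutadapt, beside StringTie and the rheMac8 build. The peak caller is not given in the sources used here. Per the file headers, the authors give each peak a fold enrichment (a ratio), a p-value and its log10, and a false discovery rate as log10 (the log10 columns are negative scores). The largest p-value in the deposited tables was 0.001 and the smallest fold enrichment 2.06. Counts of reads were not used here, so depth is unknown and no counting interval was computed.

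Peak starts count from 0, and 1 was added. Peaks were assigned to the gene in which they were called. Of 3671 gene identifiers, 3485 had a symbol. Covered bases were the union of a gene's exonic blocks in an animal. Regions joined blocks that overlapped by at least 1 base on a strand. Annotated exon and UTR classes were not used for position.

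Groups followed the labels. Covered bases (log2), peak number and position were tested with two-sided exact permutation tests over 462 splits of 6 and 5 animals (smallest p = 0.00216) and sex over 150 relabellings, with Benjamini-Hochberg adjustment over all 81 shared genes, or the 77 with a position in every animal. Intervals of 95% invert the test. Fisher's exact test was applied to genes and regions in 2 to 9 animals. Those in 2, 3, 8 or 9 animals cannot reach a p under 0.05 at any split. Named genes were the 4 members, up to 8 listed genes per pathway ordered by number of animals and then percentile, the 3 most similar shared genes by r, and the 3 shared genes on either side of the members' percentiles. Some genes that this rule or these lists hold are not reported here. The members and lists were chosen with earlier results of these data known. Values without S1 in the overlap and likeness measures were added after the data were seen. The tests were checked on simulated data. Software was Python 3.11.15, NumPy 2.4.6, SciPy 1.17.1, pandas 2.3.3 and Matplotlib 3.10.9.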

Additional observations from a re-analysis of the deposited data

Results flagged for a closer look

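Single animals stood far from the rest of their group, by the gap to the nearest animal relative to the group's range, in 11 of 32 combinations of gene, measure and group. For covered bases and position the count was 6 of 16, where chance gives about 1 in 20 such groups if values are independent and normal. Normality was not tested, and the combinations are not all independent. The 2 CHGA values of C2 come from 1 missing block. So the count cannot be set against that rate. No chance rate applies to the enrichment percentiles, which helped to choose the genes, or to peak number, which took only the values 1 and 2. S1 accounted for 4 of the 11, with an enrichment percentile of 76.8 for VGF, 41.6 for SERPINI1 and 88.9 for CA11 among the sevoflurane animals and a SERPINI1 position of 0.63% of the gene span. C1 accounted for 3 among the controls, with 571 covered bases and 2 peaks in VGF and 504 covered bases in SERPINI1. C2 accounted for 2, with 211 covered bases and a position of 74.7% in CHGA. The others were B, with 387 covered bases in CA11, and S2, the only sevoflurane animal with 2 peaks in VGF.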

How the results depend on the processing

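The median enrichment percentiles of VGF and CA11 moved by less than the spread between animals under the 3 alternatives tried. That of SERPINI1 did too, but its spread includes S1, at 41.6 against 88.8 to 99.5 elsewhere. Ordered by log10 p-value, SERPINI1 stood at 91.6, which is also the median of the 81 shared genes. Its rank among them went from 5 to 41, and that of VGF from 7 to 23. The median percentile of CHGA was 95.5 when genes were ordered by log10 p-value.

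The covered-base difference of CHGA stayed above 0 in all 19 alternatives, some of which left it unchanged at 0.38. Relabelling within label style (letter or number), sex or replicate blocks cannot change the difference. The p-value limit, lists of equal length and the annotated gene did not change it either. The exact permutation p of CHGA ranged from 0.00794 to 0.859 and was at or above 0.05 in 5. The replicate blocks were C1 and S1, C2 and S2, and C3 and S3, which share only a number. With them the CHGA difference had an exact permutation p of 0.05. Centred on each animal's median, the VGF and CA11 log2 differences turned to -0.081 and -0.13. With lists of equal length the VGF difference in peak number turned to -0.17.

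Leaving out 1 animal at a time, differences in covered bases (log2) ranged from 0.12 to 0.34 for VGF, 0.20 to 0.44 for CHGA, -0.40 to 0.20 for SERPINI1 and 0.03 to 0.20 for CA11. Other differences ranged from -0.17 to 0.20 (VGF peak number), -0.29 to 0.23 (VGF position, percentage points), -0.93 to -0.07 (CHGA position), -0.86 to 0.56 (CA11 position) and -0.014 to 0.054 (SERPINI1 position).

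Counts of genes or regions under an unadjusted p of 0.05, in either direction, moved more. The number tested also changed, so a lower count need not mean a lower share. Covered bases went from 9 of 81 genes to 5 of 64 with lists of equal length. With 1 animal left out the count went from 5 (without C, F or S2) to 15 (without S1 or S3), of 81 to 94 tested. Peak number went from 3 of 81 to 0 of 67 with p-values at most 1e-05. It went to 0 of 64 with lists of equal length and 5 of 81 within sexes. With 1 animal left out it went from 2 to 6 (6 without A, 5 without S1). Position went from 4 of 77 to between 1 (without C, D or S3) and 7 (without C1), of 77 to 89 tested. Regions went from 19 of 1265 to 11 of 867 with p-values at most 1e-05 and 4 of 615 with lists of equal length. With 1 animal left out they went to between 22 and 68, of 1068 to 1277 tested. Genes went from 27 of 1486 to 10 of 895 and 4 of 630 under the same settings. With 1 animal left out they went to between 31 and 85, of 1290 to 1488 tested. For regions and genes, leaving out C3 or any sevoflurane animal moved the count over 1.5 times, most without S1. The cause was not tested.

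SERPINI1 had no value with p-values at most 1e-05 or lists of equal length, because the S1 peak was removed. The depth is unknown without read counts.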
